A study of Saccharomyces cerevisiae with 19 samples.

Results

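The transcripts of 60 ribosome biogenesis factor genes were followed in budding yeast over a culture time course of a wild type and of a strain labelled as the sch9∆ mutant. The genes were chosen by symbol from a list of nucleolar processing, helicase and assembly factors, and all 60 were among the 5449 genes measured, each read by a probe set of its own. Total RNA of each sampling was hybridised to a single Affymetrix Yeast 2.0 array. Sampling was every 12 h, which gave 10 wild-type arrays (12 to 120 h) and 9 mutant arrays (12 to 108 h). The mutant's 120 h array was set aside by the submitters and was not analysed here. Both strains came from frozen stocks, were grown overnight in SDC, a synthetic complete medium, diluted, and kept at 30 °C with shaking and no other treatment. The labels name no strain background, no genotype for the wild type and no replacement marker for SCH9.

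Ribosomes are made in the nucleolus, where RNA polymerase I transcribes a long precursor that is cut, chemically modified and folded while ribosomal proteins join it. A large number of assembly factors act in sequence on the precursors of the small and the large subunit and then leave. Budding yeast controls their genes together, and the set is known to be switched on by growth and off by starvation. SCH9 encodes a kinase of the TOR pathway, a nutrient-sensing cascade that promotes ribosome production, and its deletion is known to extend the survival of non-dividing cells. The genes are taken below in 4 role groups, which are 7 proteins of the small nucleolar RNA particles, 18 factors of the small subunit, 10 DEAD-box RNA helicases and 25 factors of the large subunit. Each gene stands in 1 group, although a few, such as RRP5 and HAS1, act on both subunits.

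Values are quantile-normalised log2 signals, and differences between them are log2 differences, so that 1 unit is a doubling. A gene passed at an adjusted p under 0.05 in limma, with the Benjamini-Hochberg adjustment over all 5449 genes. No culture was repeated, so every p-value measures the spread over time points and not over independent cultures. In total RNA, fewer cells with a transcript and less transcript per cell cannot be told apart.

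The strain labels were checked first on SCH9 itself. The wild-type signal of SCH9 ran from 10.43 to 11.26 and that of the strain labelled mutant from 10.07 to 10.59, so it was lower there but not near the bottom of the scale. The mean difference was -0.52 ± 0.39 (SD, n = 9 times), with the mutant higher only at 12 h, by 0.16 (two-sided exact permutation test of the signs, p = 0.00781, where the smallest possible is 0.00391). URA3, a uracil synthesis gene often deleted or restored in laboratory strains, was higher in the labelled mutant at 9 of 9 times, by 1.78 ± 0.36 (SD, n = 9 times), with no overlap between the strains (same exact test, p = 0.00391, the smallest possible). The labels do not mention URA3. No source used here says whether the SCH9 probe set lies in the deleted stretch. The arrays of the strains also differed in RNA measures. The 3' to 5' score, the mean 3' minus 5' signal over 10 control probe set pairs, was 0.80 at 12 h in the wild type, averaged 1.00 at 36 to 72 h and 1.24 at 84 to 108 h, and reached 1.44 at 120 h. In the mutant it was 0.73 at 12 h and averaged 0.82 and 0.89 over the same intervals, below the wild type at 8 of the 9 shared times. The exception was 24 h, where the mutant scored 1.06 and the wild type 0.82. The 18S ribosomal RNA control (its 3' end) rose in the wild type from 8.35 at 12 h to a mean of 14.3 at 84 to 108 h and in the mutant ran from 6.69 to 7.68, below the wild type at 9 of 9 times. The part of either measure in the results was tested only by adding the 3' to 5' score to the fits. The deposited mutant values were also not written the same way, since at least 94.0% of the values in each mutant column ended in the same digits and no wild-type column had more than 0.0172% of such values. A scale difference between the columns of the strains and a strain difference cannot be told apart.

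In both strains the median transcript level of these genes was highest at 12 h and lower by 24 h. The median signal of the 60 genes in the wild type was 10.33 at 12 h and 9.31 at 24 h, and it then ranged over 8.93 to 9.21 up to 120 h. In the mutant it was 10.84 at 12 h and 9.17 at 24 h, and later values ran from 8.96 to 9.79. The 12 h median stood above every later one in each strain. The highest signal of a gene was at 12 h for 52 of the 60 in the wild type, as for 38.6% of all genes, and for 60 of the 60 in the mutant, as for 39.8% of all genes.

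**Figure D1:**
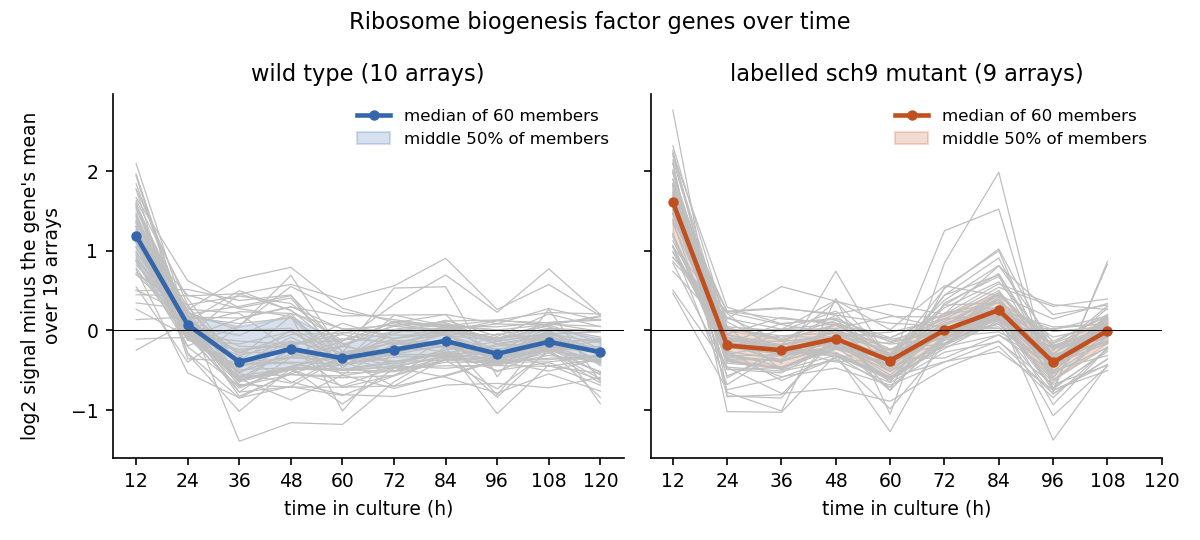
Log2 signal of each of the 60 genes minus that gene's mean over the 19 arrays (vertical axis), against time in culture in h, for the wild type (10 arrays, left) and the labelled sch9 mutant (9 arrays, right). Grey lines are single genes, the coloured line is their median and the band their middle 50%; the median is highest at 12 h in both strains, and the mutant's 84 h value lies above those at 72 and 96 h for 58 of the 60.

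The fall was tested as the change from the 12 h array to the mean of the 36 to 72 h arrays. In the wild type 49 of the 60 genes fell and none rose, where 36.2% of all genes fell and 27.9% rose. The median change of the 60 was -1.48, a 2.79-fold fall, against -0.08 over all genes. In the mutant all 60 fell, where 33.3% of all genes fell and 28.1% rose, and the median change was -1.71, a 3.27-fold fall, against -0.05 over all genes. The estimate was a fall of at least 2-fold for 45 genes in the wild type and 56 in the mutant, and of at least 4-fold for 14 and 18. Over all genes the lower quartile of the change was -0.61 in the wild type and -0.58 in the mutant, short of a 2-fold fall. These tests rest on 1 array per strain at 12 h, whose spread is taken to be that of the later arrays. The 3' to 5' score rose over the same interval in both strains. With the score in the fit, 46 genes fell and 1 rose in the wild type and 60 fell in the mutant.

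Most of the small nucleolar RNA particle proteins taken here belong to particles that modify ribosomal RNA. All 7 fell in each strain, with a median change of -1.76 in the wild type and -2.23 in the mutant. NOP56 and NOP58, core proteins of the box C/D particles that direct methylation, were among the steepest. NOP56 ran from 8.64 to 11.18 in the wild type (median 9.17) and from 8.28 to 11.48 in the mutant (median 8.99), with its highest value in each strain at 12 h. It changed by -2.35 in the wild type and by -2.62 (SE 0.32, adjusted p = 6.29e-06) in the mutant, a 6.16-fold fall. NOP58 ran from 9.49 to 12.36 in the wild type (median 10.48) and from 8.89 to 12.37 in the mutant (median 9.83). The 12 h values of the strains were thus almost equal, and the later mutant values were mostly lower. NOP58 changed by -2.32 in the wild type and by -2.76 (SE 0.53, adjusted p = 0.000376) in the mutant. NOP1, the methyltransferase of the same particles, changed by -2.21 and -2.29. CBF5, the pseudouridine synthase of the box H/ACA particles, changed by -1.62 in the wild type and by -2.23 in the mutant.

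Of the 18 small subunit factors, many of which belong to the processome that forms on the nascent precursor, 16 fell in the wild type and 18 in the mutant, with median changes of -1.71 and -1.66. NSR1, a nucleolin-like RNA-binding protein, had the largest estimate of a fall among the 60 in the wild type. Its signal there was 12.03 at 12 h and 10.65 at 24 h and averaged 9.36 ± 0.32 (SD, n = 4 times) at 36 to 72 h. The change was -2.67 (SE 0.69, adjusted p = 0.00383), a 6.36-fold fall. In the mutant NSR1 was 12.59 at 12 h and averaged 10.75 ± 0.84 (SD, n = 4 times), a change of -1.85 (adjusted p = 0.0318). UTP13 and UTP4, WD-repeat proteins of the processome, changed by -2.35 and -2.15 in the wild type and by -2.39 and -2.16 in the mutant. Among these factors that fell in both strains UTP20 changed least, by an estimate of -0.62 in the wild type (adjusted p = 0.0378) and -0.63 in the mutant (adjusted p = 0.0365). IMP4 and MPP10, which sit together in the processome, did not pass in the wild type, where their changes were -0.30 and -0.43, and fell in the mutant, with -1.35 and -1.11.

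The DEAD-box helicases unwind or remodel the precursors. Of the 10, 8 fell in the wild type and 10 in the mutant, with medians of -1.60 and -1.50. DBP2, which also acts in messenger RNA packaging and decay, ran from 8.43 to 11.22 in the wild type (median 8.97) and from 8.39 to 12.21 in the mutant (median 9.85). Its mutant values after 12 h did not settle, going from 8.39 at 60 h up to 11.43 at 84 h and back to 8.67 at 96 h. The change was -2.49 (SE 0.81, adjusted p = 0.0148) in the wild type and -2.97 (SE 0.81, adjusted p = 0.00536) in the mutant. The wild-type call was lost with the 3' to 5' score in the fit, at an adjusted p of 0.056. HAS1, a helicase needed for both subunits, changed by -2.01 and -2.07. DBP3 and DRS1 did not pass in the wild type, with changes of -0.62 (adjusted p = 0.0717) and -0.66 (adjusted p = 0.0583), and fell in the mutant, with -1.57 and -1.26.

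Of the 25 large subunit factors, 18 fell in the wild type and 25 in the mutant, with medians of -1.30 and -1.72. NSA2, an essential protein of large subunit precursors, ran from 8.36 to 11.11 in the wild type (median 8.58) and from 8.73 to 11.47 in the mutant (median 9.22). Its 12 h value stood apart from all others in each strain, and it changed by -2.53 (SE 0.30, adjusted p = 6.09e-06) in the wild type, a 5.78-fold fall, and by -2.26 in the mutant. NOG1, a GTPase of the same precursors, changed by -2.28 and -2.13. RRP1, needed for processing of the internal spacer, changed by -2.17 and -2.22. NOP2, a methyltransferase of large subunit ribosomal RNA, changed by -1.47 and -1.33. The 7 that did not pass in the wild type were NOP7, NOP16, NOP53, NSA1, RRP8, RRP15 and TIF6, whose changes ran from -0.36 for RRP8 to 0.43 for NOP16.

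**Figure D2:**
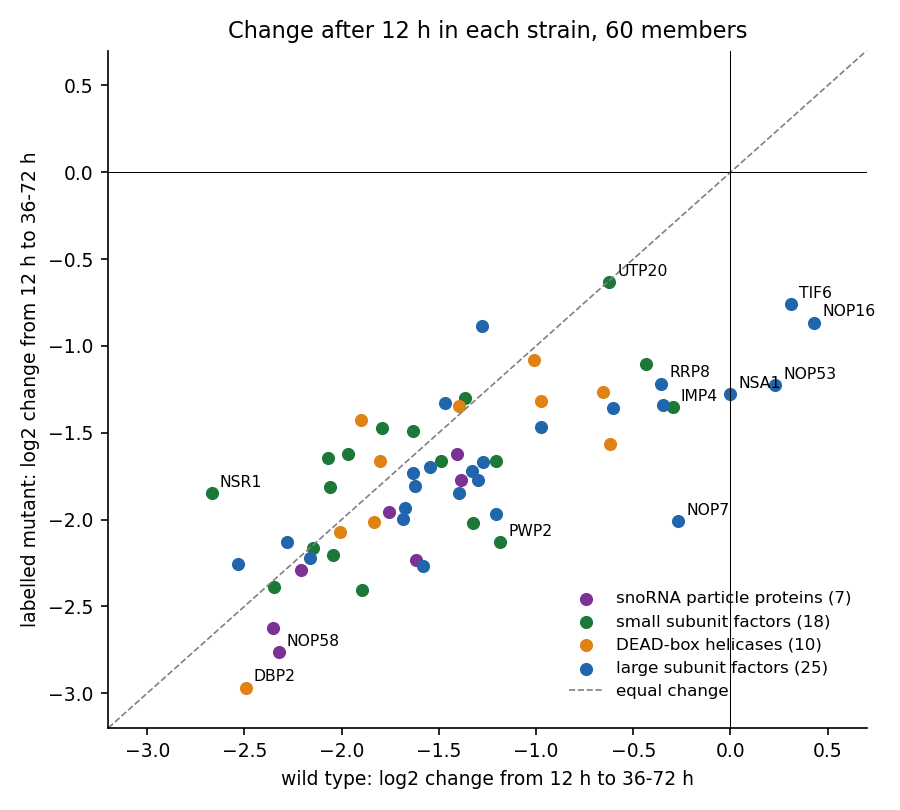
Change of each of the 60 genes from 12 h to the mean of 36 to 72 h, in log2, in the wild type (horizontal axis) and in the labelled sch9 mutant (vertical axis), coloured by role group, with a dashed line of equal change. Most genes fell in both strains, and NOP7, NOP53, NOP16, NSA1 and TIF6 lie near 0 in the wild type but well below 0 in the mutant.

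Most of the fall came by 24 h, and the strains differed in what followed. From 12 to 24 h the signal dropped in 56 of the 60 genes in the wild type, with a median change of -1.13, and in 60 in the mutant, with a median of -1.72. From 24 h to the mean of 36 to 72 h it dropped further in 52 genes in the wild type, with a median of -0.35. In the mutant 27 genes were lower and 33 were not, with a median of 0.01. These steps compare single arrays, were not tested and were not set beside the same steps over all genes. In the wild type NOP16, TIF6, NSA1 and RRP15 were higher at 24 h than at 12 h. The median difference between the strains went from 0.41 at 12 h to -0.24 at 24 h, against 0.04 and 0.02 over all genes. The mutant's 24 h array had the highest 3' to 5' score of its strain, 1.06, against 0.82 in the wild type at that time, and the part of this in the 24 h values was not tested.

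The changes of the strains were then set against each other. The mutant's change was the lower for 46 of the 60 genes, as for 2700 of all 5449. The median difference was -0.27, against 0.01 over all genes. It went with a higher start in the mutant more than with a lower end. The median signal difference of the 60, mutant minus wild type, was 0.41 at 12 h and 0.06 at 36 to 72 h. Over all genes it was 0.04 at both. The 12 h value rests on 1 array per strain. The difference between the changes passed for 7 genes, all lower in the mutant. Of all genes 11.8% passed in that direction and 14.3% in the other. The share of the 60 that passed was thus close to that of all genes. With the times as a replicate block 11 genes passed, all lower, and with the 3' to 5' score in the fit 14 passed lower and 1 higher. The counts over all 5449 genes rose in these fits too. They went from 643 lower and 779 higher to 743 and 919 with the block and to 1028 and 1088 with the score. By role, 6 of the 7 were large subunit factors and 1 was a small subunit factor.

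All 7 fell in the mutant, while in the wild type the change passed for PWP2 alone. NOP7, which works in a complex with ERB1 and YTM1 on large subunit precursors, was 9.83 at 12 h in the wild type and averaged 9.56 ± 0.32 (SD, n = 4 times) at 36 to 72 h. In the mutant it was 10.57 and then averaged 8.56 ± 0.13 (SD, n = 4 times). The mutant's change was lower by 1.74, which is a 3.34-fold difference (estimate -1.74, SE 0.35, adjusted p = 0.00234). NOP53, a late large subunit factor that recruits the RNA exosome's helicase, was 9.68 at 12 h in the wild type and averaged 9.91 ± 0.09 (SD, n = 4 times), against 9.92 and 8.69 ± 0.17 (SD, n = 4 times) in the mutant. Its difference was -1.46 (SE 0.34, adjusted p = 0.00651). NOP16, also a large subunit assembly factor, went from 9.62 to a mean of 10.05 in the wild type and from 10.61 to 9.74 in the mutant, and the difference was -1.30 (SE 0.32, adjusted p = 0.00972).

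The other 4 of these genes are named here after their values were seen. NSA1, a factor of early large subunit particles, held a range of 9.38 to 9.84 over all 10 wild-type arrays, while in the mutant it was 10.58 at 12 h and at most 9.52 later. The difference in change was -1.28 (SE 0.21, adjusted p = 0.000618). TIF6, which keeps the subunits apart until the large one is mature, had a range of 11.80 to 12.20 in the wild type and was lowest there at 12 h. In the mutant it was 12.38 at 12 h, 11.17 at 24 h and 12.16 at 84 h, so that it came back, and the difference in change was -1.07 (SE 0.23, adjusted p = 0.00373). PWP2, a scaffold protein of the processome, changed by -1.19 in the wild type and by -2.13 in the mutant, a difference of -0.94 (SE 0.25, adjusted p = 0.0127). RRP8, a methyltransferase of large subunit ribosomal RNA, had a difference of -0.86 (SE 0.30, adjusted p = 0.0461). That call held in 1 of the 3 other scalings and was lost when 36, 48, 72, 84 or 108 h was left out. All 7 calls held with the 3' to 5' score in the fit.

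Over the 9 shared times genes of the set differed between the strains in both directions. In the strain term with time as a block, 25 of the 60 genes were higher in the mutant and 8 lower, where 32.4% of all genes were higher and 26.8% lower. The median difference of the 60 was 0.09, against 0.03 over all genes. Without the time block 4 were higher and 1 lower, where 1286 of the 5449 genes were higher and 1049 lower. On the deposited values, where all genes had a median difference of 0.17, 28 were higher and 2 lower. With the 3' to 5' score in the fit 11 were higher and 4 lower, with a median of -0.03, where 1457 of all genes were higher and 1259 lower. Without 84 h 17 were higher and 6 lower, with a median of -0.00, where 1623 of all genes were higher and 1329 lower. Leaving out 12 h gave 16 lower genes, leaving out 48 or 60 h gave 4, and leaving out 96 or 108 h gave 5. Of the 33 calls, 18 held in all 3 other scalings and 21 held whichever time was left out.

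The role groups were unlike in direction, although the difference between groups was not tested. Of all genes 32.4% were higher in the mutant and 26.8% lower. Of the small subunit factors 10 were higher (55.6%) and 0 lower, with a median of 0.25. Of the helicases 6 were higher (60%) and 2 lower (20%), with a median of 0.36. Of the large subunit factors 8 were higher (32%, close to the share of all genes) and 4 lower (16%), with a median of -0.12. Of the particle proteins 1 was higher (14.3%), which was GAR1, and 2 were lower (28.6%), which were NOP58 and CBF5, with a median of -0.13.

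**Figure D3:**
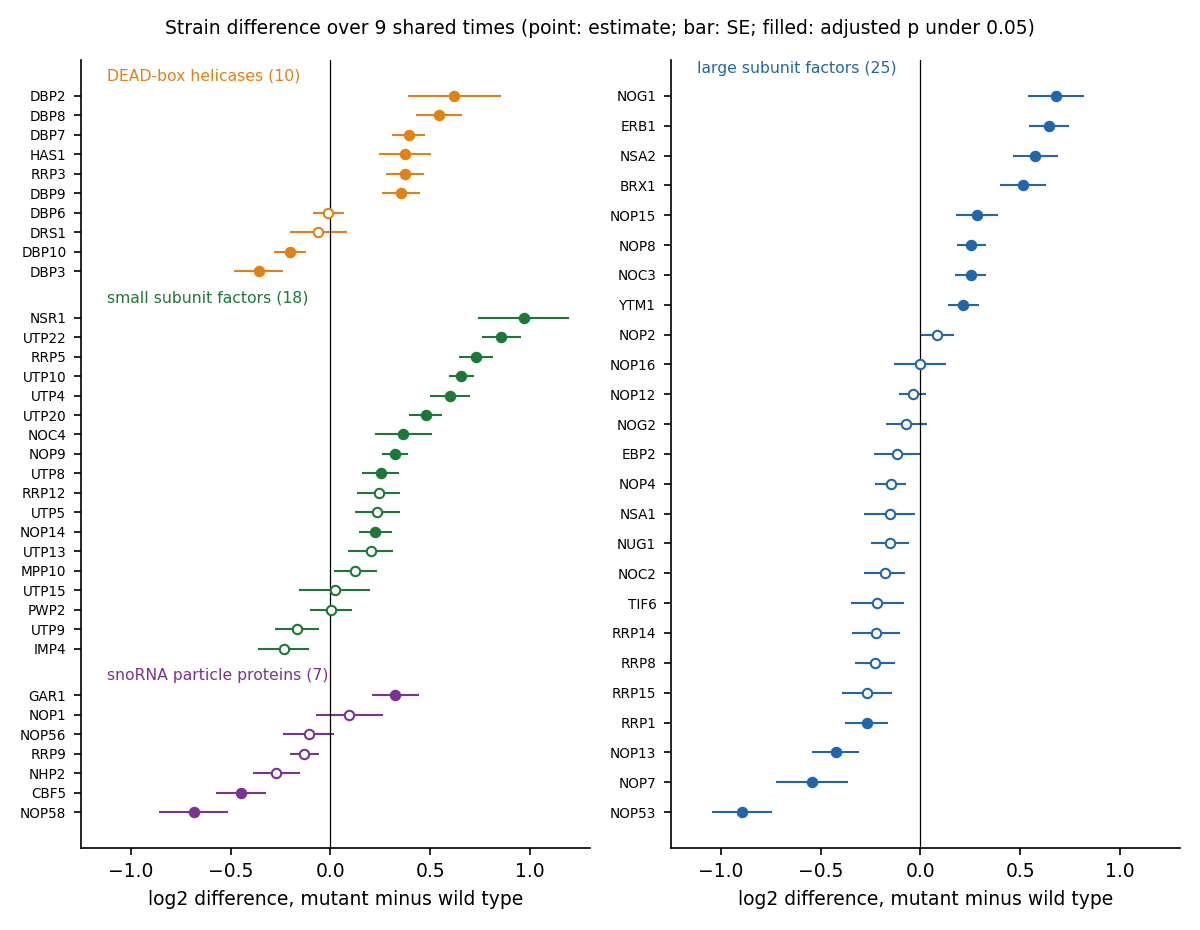
Strain difference of the 60 genes over the 9 shared times, labelled sch9 mutant minus wild type in log2, by role group, with the SE as bars and filled points for the genes that passed. Small subunit factors lie mostly above 0, up to 0.97 for NSR1, and NOP53 at -0.89 is the lowest of all.

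Among the small subunit factors, UTP22 and RRP5 were higher in the mutant at 9 of 9 times. UTP22, which binds early in the processome, ran from 8.50 to 10.48 in the wild type (median 8.68) and from 9.53 to 11.06 in the mutant (median 9.61). After 12 h every mutant value of UTP22 was above every wild-type value. The difference was 0.86 (SE 0.10, adjusted p = 4.23e-05), or 1.81-fold. RRP5, which is needed for the early cleavages that lead to both subunits, ran from 8.43 to 10.25 in the wild type (median 8.84) and from 9.36 to 10.95 in the mutant (median 9.55). Its difference was 0.73 (SE 0.08, adjusted p = 4.08e-05), or 1.66-fold. NSR1 ran from 9.06 to 12.03 in the wild type (median 9.71) and from 9.70 to 12.59 in the mutant (median 11.20). It was higher in the mutant at 8 of 9 times, by 0.97 (SE 0.23, adjusted p = 0.00344), a call lost with the 3' to 5' score in the fit at a difference of 0.62 and an adjusted p of 0.088.

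UTP10, UTP4 and UTP8, which form a subcomplex of the processome with others, were higher by 0.66, 0.60 and 0.25. NOP9, which binds precursor RNA of the small subunit, was higher by 0.32 and at 9 of 9 times. Large subunit factors with higher signal were led by NOG1 at 0.68 (adjusted p = 0.00162) and ERB1 at 0.64 (adjusted p = 0.00027), followed by NSA2 at 0.58 and BRX1 at 0.52. Helicases with higher signal were DBP2 at 0.62, DBP8 at 0.55, DBP7 at 0.39, HAS1 and RRP3 at 0.37 each, and DBP9 at 0.35. In all, 7 of the 60 genes were higher in the mutant at every shared time, which were UTP10, UTP22, NOP9, RRP5, DBP7, NSA2 and ERB1, and 0 were lower at every time. Of all genes 28.4% kept 1 sign at every time.

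NOP53, NOP58 and NOP7 had the lowest estimates. NOP53 ran from 9.34 to 10.32 in the wild type (median 9.84) and from 8.53 to 9.92 in the mutant (median 8.94). Its mutant signal was above the wild type at 1 of 9 times, 12 h, and the difference was -0.89 (SE 0.15, adjusted p = 0.000451), or 1.86-fold. NOP58 was higher in the mutant at 2 of 9 times, with a difference of -0.69 (SE 0.17, adjusted p = 0.00524) that did not pass with the 3' to 5' score in the fit (adjusted p = 0.067) or without the times from 84 h on (adjusted p = 0.065). NOP7 ran from 8.81 to 9.89 in the wild type (median 9.28) and from 8.30 to 10.57 in the mutant (median 8.70). The mutant was the higher at 12 h only, and the difference of -0.54 (SE 0.18, adjusted p = 0.0218) was lost without 36, 48 or 60 h, on the deposited values and with the score in the fit (adjusted p = 0.074). NOP7, ERB1 and YTM1 work in the same complex, and their strain differences were -0.54, 0.64 and 0.22. The difference between these genes was not tested. CBF5 at -0.45, NOP13 at -0.42, DBP3 at -0.36, RRP1 at -0.27 and DBP10 at -0.20 were the other lower genes.

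**Figure D4:**
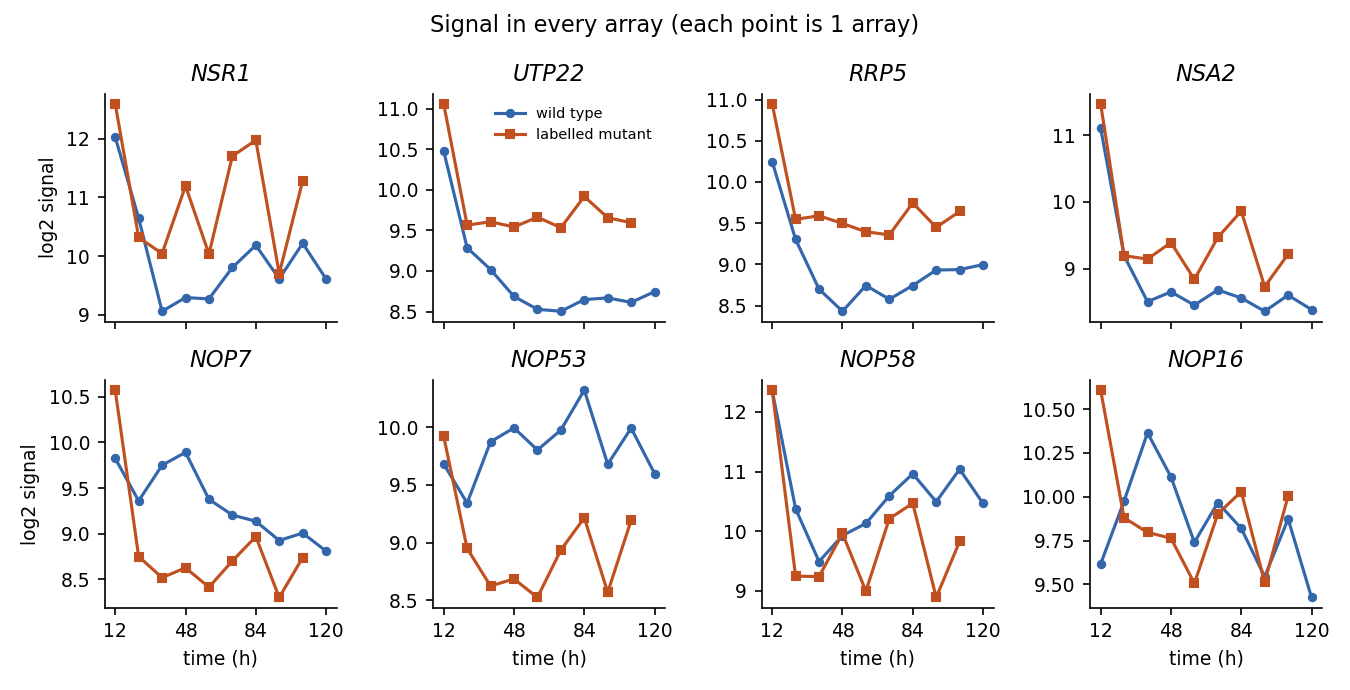
Quantile-normalised log2 signal against culture time in h for 8 genes named by size of estimate, in the wild type and the labelled sch9 mutant. Each panel has its own vertical range and each point is 1 array. From 24 h on the mutant's UTP22 and RRP5 lie above the wild type at every shared time and its NOP53 and NOP7 lie below it.

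The strain difference of the set changed from time to time. At 12 h 57 of the 60 genes were higher in the mutant, where 55.5% of all genes were, with a median difference of 0.41. At 24 h 45 were lower, where 48.3% of all genes were, with a median of -0.24 against 0.02 over all genes. Between 36 and 72 h the medians ran from -0.09 at 60 h to 0.27 at 72 h. At 84 h 48 were higher, where 53.8% of all genes were, with a median of 0.48 against 0.05 over all genes. The median was then -0.06 at 96 h and 0.13 at 108 h. Each of these values rests on 1 array per strain and has no test.

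In the interval from 36 to 72 h, 19 genes were higher in the mutant and 10 lower, where 33.7% of all genes were higher and 28.8% lower, and the median was 0.06. With the times as a replicate block 23 were higher and 15 lower, and on the deposited values 25 were higher and 3 lower. Over all 5449 genes the block gave 1925 higher and 1664 lower, and the deposited values 2076 and 1486. Without 72 h the median was -0.03. The 19 held 10 small subunit factors, and the 10 lower genes held 8 large subunit factors and 2 helicases. The share of the large subunit factors that were lower, 32%, was close to the 28.8% of all genes. NSR1 was higher by 1.39 (2.61-fold), a call lost without 48 h at an adjusted p of 0.075. UTP22 was higher by 0.90 and RRP5 by 0.85. Among the lower genes NOP53 had a difference of -1.22, NOP7 of -0.99 and DBP3 of -0.59, a call lost without 60 h at an adjusted p of 0.057 and on the deposited values at 0.085. With the score in the fit the NSR1 call was lost at an adjusted p of 0.064.

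In the interval from 84 to 108 h, 16 genes were higher in the mutant and 5 lower, where 30.9% of all genes were higher and 25.7% lower, and the median was 0.20. These counts hung on single arrays. Without 84 h 4 were higher and 7 lower, without 108 h 7 were higher and 3 lower, and without 96 h 18 were higher and 1 lower. Over all 5449 genes these fits gave 1297 higher and 1098 lower, 1194 and 1054, and 1347 and 1186. On the deposited values 27 were higher and 0 lower, and after cyclic loess 8 were higher and 6 lower. With the 3' to 5' score in the fit 5 were higher and 8 lower, with a median of -0.02. Over all genes these fits gave 2400 higher and 1017 lower, 1460 and 1470, and 1221 and 1144. With the times as a replicate block 19 were higher and 7 lower. UTP22 at 1.08 (adjusted p = 5.45e-06) and ERB1 at 0.89 (adjusted p = 8.27e-05) led the higher genes. NOG1 followed at 0.82, and was lost without 84 h or 108 h. NOP58 at -1.10, NOP53 at -1.004 and CBF5 at -0.64 were the lowest. The NOP58 call was lost without 96 h or 108 h, and the CBF5 call without 48, 96 or 108 h. On the deposited values NOP58, NOP53 and CBF5 did not pass (adjusted p = 0.094, 0.054 and 0.326), and with the score in the fit NOG1, NOP58 and CBF5 did not (adjusted p = 0.305, 0.382 and 0.223).

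Between the means of 36 to 72 h and of 84 to 108 h no change of the set passed the test. Changes within either interval were not tested. A few genes passed where the early interval ended at 60 h or 120 h was added, as given below. From 36 to 72 h to 84 to 108 h 0 of the 60 genes rose or fell in the wild type in limma, where 0.954% of all genes rose and 1.01% fell. At an unadjusted p under 0.05 there were 7 higher and 2 lower, 15% of the 60 against 26.5% of all genes. The median change was 0.09, against 0.02 over all genes. In the mutant 0 passed, where 1.17% of all genes rose and 1.41% fell. Unadjusted, 5 were higher and 0 lower, 8.33% of the 60 against 22.4% of all genes, and the median was 0.14. Without 72 h 3 genes rose and 0 fell in the mutant, where 293 of all 5449 genes rose and 375 fell. Without 84 h the mutant's median was -0.04. For the difference between these changes 0 passed, where 0.661% of all genes passed higher and 0.679% lower. Unadjusted, 2 were higher and 0 lower, 3.33% of the 60 against 23.0% of all genes.

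The mutant's 84 h array stood out from its neighbours for nearly all of these genes. The signal at 84 h was above those at 72 and at 96 h for 58 of the 60 genes, as for 27.7% of all genes, and in the wild type for 32 of the 60. From 24 h on, 84 h was the time of the highest mutant signal for 50 of the 60. The share of all genes was not counted for these 50 or for the 32 in the wild type. The median change was 0.28 from 72 to 84 h and -0.66 from 84 to 96 h, against -0.01 and 0.03 over all genes and 0.10 and -0.10 for the 60 in the wild type. DBP2 dropped from 11.43 at 84 h to 8.67 at 96 h, NSR1 from 11.98 to 9.70 and NOP1 from 11.74 to 10.14. UTP20 was at 10.50 at both times. There is 1 array at each of these times, so a transient rise in the culture and a property of that array cannot be told apart.

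The genes moved closely together over the whole series and less so after the first time. The correlation of each gene with the mean of the other 59 over the 19 arrays had a median of 0.92, and 31 genes exceeded 0.9. NOP2 and UTP13 were closest to the mean of the others, at 0.98, and NOP53 at 0.22 and TIF6 at 0.28 were farthest. Without both 12 h arrays, an alternative chosen after seeing the data, the median over 17 arrays was 0.57, the range ran from -0.02 for NOP53 to 0.96 for NOP2, and 3 genes exceeded 0.9. The arrays of a strain share their culture, and these values describe the series without a test. Across the 60 genes the wild-type and mutant changes from 12 h correlated at r = 0.73 (Spearman's rho 0.72), against 0.77 and 0.75 over all genes, where genes are not independent replicates. RRP15 and NOC4 on chromosome XVI were the 1 adjacent pair among the 60. Their changes were -0.35 and -1.20 in the wild type and -1.34 and -1.66 in the mutant.

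Other genes of the pathway were counted in the same fits. Of 96 further ribosome biogenesis factors 72 fell and 1 rose in the wild type after 12 h and 93 fell in the mutant, with medians of -1.10 and -1.42. RIX1, which joins the late nuclear large subunit particle, fell in both strains, with -2.68 and -2.44. Over the shared times 40 of the 96 were higher in the mutant and 13 lower, where 32.4% of all genes were higher and 26.8% lower. ALB1, a shuttling large subunit factor, was higher by 0.92 (adjusted p = 4.53e-05). DIM1, the dimethyltransferase of small subunit ribosomal RNA, had a difference of -0.79 (adjusted p = 0.000637). Of 15 genes for RNA polymerase I and its factors 8 fell in the wild type and 12 in the mutant, led by the subunit gene RPA49 at -2.85 and -2.67. Of 17 genes of the exosome and nuclear RNA decay 7 fell and 2 rose in the wild type and 12 fell in the mutant. Of all genes 36.2% fell and 27.9% rose in the wild type, and 33.3% fell in the mutant. The share of these 17 that fell in the wild type, 41.2%, was thus close to that of all genes. RRP6, the nuclear exonuclease of the exosome, was higher in the mutant by 0.77 over the shared times (adjusted p = 3.23e-06).

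**Figure D5:**
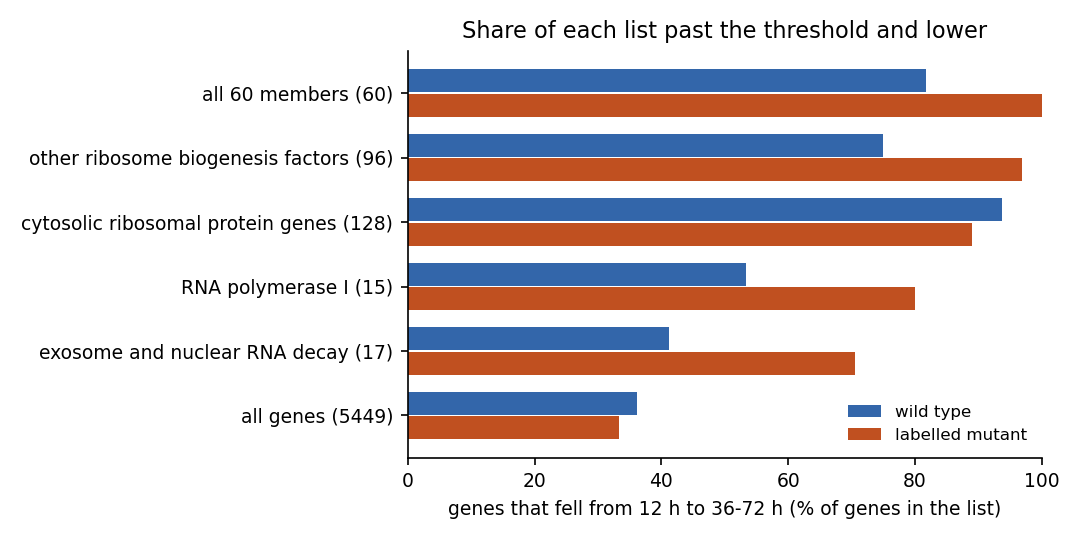
Percent of the genes of each list that fell from 12 h to 36 to 72 h at an adjusted p under 0.05, in the wild type and the labelled sch9 mutant, beside all genes. For the 60 genes 49 fell in the wild type and 60 in the mutant, and for all genes the shares are 36.2% and 33.3%.

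Most genes for the cytosolic ribosomal proteins fell as well. Of 128, 120 fell in the wild type and 114 in the mutant, with medians of -1.08 and -0.71. The difference between these changes passed for 29 as higher in the mutant (22.7%, against 14.3% of all genes) and for 4 as lower, and 95 did not pass, with a median difference of 0.36. For the 60 assembly factors these counts were 0 and 7 and the median was -0.27. Over the shared times 108 ribosomal protein genes were higher in the mutant and 5 lower, with a median of 0.53, where 32.4% of all genes were higher and 26.8% lower. Many ribosomal protein genes exist as near-identical pairs whose probe sets can share signal. The contrast between the lists was not tested.

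Of 16 regulators of these genes, 5 rose and 2 fell in the wild type after 12 h and 6 rose and 2 fell in the mutant, where 27.9% and 28.1% of all genes rose. DOT6, a repressor of ribosome biogenesis genes that the kinase Sch9 is known to phosphorylate, rose in both strains by 1.66 and 1.74, and over the shared times had a difference of -0.81. The change of its relative TOD6 passed in neither strain. Over the shared times TOD6 went the other way from DOT6, with a difference of 0.50 (adjusted p = 0.00501 in limma). STB3, another repressor that binds their promoters, had a change of -0.06 in the wild type, which did not pass, and rose by 1.07 in the mutant, and the difference of 1.13 passed. SFP1, an activator of the same genes, rose by 0.62 in the wild type and had 0.25 in the mutant, which did not pass. TOR2, a kinase upstream of this pathway, fell by 0.50 in the wild type and rose by 0.64 in the mutant, a difference of 1.13 that passed. CRF1, a corepressor of ribosomal protein genes, rose by 0.76 in the wild type and by 2.31 in the mutant, a difference of 1.55 that passed. The arrays measure the transcripts of these regulators and not their phosphorylation or place in the cell.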

How the data were processed

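RNA was measured on 19 arrays. The deposited values are log2 signals, per the values in the file, and no source used here names the authors' summary software, background correction or normalisation. Raw intensities were not used. From 5814 probe sets, 51 controls and 265 without a gene were removed. All 5498 remaining ones matched the R64 annotation by identifier, with 12 symbols updated. Where a gene had several probe sets (47 genes), the brightest on average was taken, leaving 5449 genes. Column medians spanned 0.61, above the limit of 0.1, so the values were quantile-normalised. The number of arrays limits the precision.

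Tests used limma 3.58.1 (R 4.3.3). One fit held a strain term with the shared times as blocks (8 residual degrees of freedom). The other held a mean per strain at 12 h, 24 h, 36 to 72 h, 84 to 108 h and, in the wild type, 120 h (10 residual degrees of freedom). The times were taken to pair the strains. The deviations of same-time arrays from their strain means correlated over genes at 0.11 to 0.79 at all 9 times, above the limit of 0.1. Arrays of different times were not compared in this way, so these values do not show that matched times pair the arrays better than others. The rule for named genes named, for each comparison, at most 3 passing members per direction by size of estimate, and at most 2 from each other list. Regulators could all be named. Further members, named to illustrate a role, were chosen after their values were seen. The members, the lists and the rule were chosen with earlier results of these data known. The fits were tested on simulated data. Alternatives were other scalings, the mean of a gene's probe sets, dim probe sets left out, array weights and a variance trend. Others were the 3' to 5' score added to the fit, other intervals, strains fitted alone, other blocks and a stricter threshold. Each shared time was also left out in turn, except 12 h for the changes from 12 h. Promoter sequences were not analysed here.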

Additional observations from a re-analysis of the deposited data

Results flagged for a closer look

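The 12 h arrays stood apart. Of the 22 sets of values tested by Dixon's criterion (11 items in each strain), 15 had a sample far from the others, and in each it was the highest value, at 12 h; chance gives about 1 in 20 for items picked without regard to their values, which does not hold here, since most of these genes were named for a large change from 12 h or a large strain difference and all share the same arrays. In the wild type these were UTP22 at 10.48, RRP5 at 10.25, NSA2 at 11.11, DBP2 at 11.22, NOP56 at 11.18 and the median of the 60 genes at 10.33. In the mutant they were UTP22 at 11.06, RRP5 at 10.95, NOP53 at 9.92, NOP58 at 12.37, NOP7 at 10.57, NSA2 at 11.47, NOP56 at 11.48, NOP16 at 10.61 and the median of the 60 genes at 10.84. All changes from 12 h rest on these arrays.

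For 7 genes the change from 12 h to 36 to 72 h differed between the strains in limma. The differences, mutant change minus wild-type change, were -1.74 for NOP7, -1.46 for NOP53, -1.30 for NOP16, -1.28 for NSA1, -1.07 for TIF6, -0.94 for PWP2 and -0.86 for RRP8.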

How the results depend on the processing

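Across 18 counts of genes and 344 settings compared, 293 counts stayed within 1.5 times the reported one and 51 did not. The median of the 60 genes changed sign in 8 of 163 settings. Many of the 163 could not move it. Other blocks, a variance trend, strains fitted alone and leaving out times outside the compared intervals left the estimates as they were. With the 3' to 5' score the median was -0.03 for the strain difference over the shared times and -0.02 for that at 84 to 108 h. Without 84 h it was -0.00 over the shared times, -0.04 for the mutant's later change and -0.12 for the difference between the later changes, which was -0.05 with median centring. It was -0.03 for the strain difference at 36 to 72 h without 72 h, also where the early interval ended at 60 h. At 84 to 108 h the lower genes outnumbered the higher ones with the score (5 and 8) and without 84 h (4 and 7). The fall after 12 h moved least, but 12 h itself was never left out for it or for its strain difference. Leaving out times therefore did not test the 12 h array of either strain, on which the fall rests. Leaving out a time outside 36 to 72 h could move the calls but not the estimates. Leaving out each time but 12 h in turn gave 0 to 1 higher and 48 to 51 lower genes in the wild type. In the mutant it gave 0 higher and 58 to 60 lower. The single higher gene in the wild type appeared on the deposited values, with median centring, with the 3' to 5' score and with each strain fitted alone (1 each). For the difference between these changes, leaving out a time gave 6 to 8 lower, the replicate block 11 lower, and the score 1 higher and 14 lower. Over all genes the block gave 919 higher and 743 lower, and the score 1088 and 1028.

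The strain difference over the shared times moved most. Higher counts were 11 with the score, 4 in the fit with no replicate block, 15 without the times from 84 h on, 16 at an adjusted p under 0.01 and 17 to 28 with a time left out. Lower counts were 2 on the deposited values, 15 with array weights, 4 with the score and 1 with no replicate block. They were 2 without the times from 84 h on, 13 from 36 h on, 4 at an adjusted p under 0.01 and 4 to 16 with a time left out. Over all genes the score gave 1457 higher and 1259 lower, and no replicate block 1286 and 1049. At 36 to 72 h, 3 were lower on the deposited values, 12 higher with dim probe sets left out (42 of the 60 then remained) and 6 lower at an adjusted p under 0.01; leaving out a time gave 14 to 23 higher and 7 to 13 lower. At 84 to 108 h, higher and lower counts were 27 and 0 on the deposited values, 5 and 8 with the score, and 5 and 3 at an adjusted p under 0.01; cyclic loess gave 8 higher, and leaving out a time gave 4 to 18 higher and 1 to 7 lower. For the later change in the wild type, ending the early interval at 60 h gave 1 higher and 2 lower, where 284 of all 5449 genes were higher and 415 lower. Adding 120 h to the late interval gave 4 and 1, where 426 and 441 of all genes were. Leaving out a time gave 0 to 1 and 0 to 2. In the mutant the shorter early interval gave 3 higher, where 293 of all genes were higher and 375 lower, and leaving out a time gave 0 to 3. For the difference between these, they gave 2 higher, 1 with 120 h added and 0 to 2 with a time left out. The replicate block took no other count of the interval comparisons past 1.5 times.

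Of 489 checks on single named genes, 30 lost the call. The deposited values moved the median of all genes in the strain difference from 0.03 to 0.17 and, in the wild-type fall, from -0.08 to 0.22. Array weights could not be fitted for the interval means. Only the score bears on RNA quality. Causes of these shifts were not tested.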
